A study of Mus musculus with 35 samples.

Results

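Gene expression 72 h after lipopolysaccharide (LPS) was compared with 72 h after saline in cortical astrocytes, using 3 LPS and 4 saline libraries of the 35 in the study. Both groups were female Aldh1l1egfp mice of postnatal day 30 to 35, in which the Aldh1l1 promoter, active in astrocytes, drives a green fluorescent protein that served to sort the cells. LPS was given at 5 mg/kg. Apart from the injected agent the labels give no difference between the groups, and 72 h was the latest of 3 times sampled. The labels state no number of mice per library and do not say whether replicates came from separate animals. The p-values therefore measure spread between libraries, which may be technical. That spread was estimated within groups over all 35 libraries, males at 24 h included, and not from the 72 h libraries alone. Females killed at 3 h (5 LPS, 4 saline) and 24 h (4 LPS, 5 saline) served as the earlier points, each time with saline libraries of its own.

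LPS is a lipid and sugar component of the outer membrane of Gram-negative bacteria, sensed by Toll-like receptor 4. After injection into the body, cytokines such as tumour necrosis factor, interleukin-1, interleukin-6 and interferons are released, and astrocytes answer with acute-phase, chemokine, interferon and antigen-presentation genes through transcription factors that include NF-kB and STAT3. Astrocytes in this state are called reactive, and Gfap, an intermediate filament protein, is their classical marker.

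The unit is FPKM, fragments scaled to transcript length and to library size, so levels of different genes can be set side by side per length. Library sums of FPKM at 72 h lay between 482348 and 552246, and 16236 to 16942 genes reached an FPKM of 1. Depth in reads is unknown. Pairs of libraries of the same group correlated across genes on the log2(FPKM + 1) scale at a Pearson r of 0.915 to 0.951 in LPS and of 0.889 to 0.972 in saline. Saline replicates 3 and 4 stood apart: mitochondrially encoded genes took 5.96% and 5.43% of their FPKM, against 17.4% and 22.1% in saline replicates 1 and 2 and 12.04%, 17.3% and 14.7% in LPS replicates 1 to 3. Summed FPKM of 12 oligodendrocyte markers was also higher there, at 1705 and 2237 against 716 and 714 in saline replicates 1 and 2. Results are therefore also given without replicates 3 and 4, and without replicates 1 and 2, of saline, both chosen after seeing the data. All 24 astrocyte identity genes were detected and none passed the test at 72 h. Aldh1l1 was 117 ± 51.8 FPKM in saline (SD, n = 4) and 88.1 ± 28.2 in LPS (SD, n = 3), and the glutamate transporter Slc1a2 was 622 ± 146 and 663 ± 83.5.

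Of 19426 genes tested, 15 were higher 72 h after LPS (0.0772%) and 0 were lower (0%), by limma with a Benjamini-Hochberg adjusted p under 0.05. In order of log2 fold change they were Saa3, Lcn2, Serpina3n, Cxcl10, H2-Q6, Cd52, Cxcl13, Fpr1, Ptprc, B2m, H2-Q7, Lat2, Mpeg1, Itgb2 and Adcy7. They fall into acute-phase proteins (Saa3, Lcn2, Serpina3n), chemokines (Cxcl10, Cxcl13), MHC class I molecules (H2-Q6, H2-Q7, B2m) and genes best known from leukocytes (Cd52, Fpr1, Ptprc, Lat2, Mpeg1, Itgb2, Adcy7). At an unadjusted p under 0.05, 446 genes were higher (2.3%) and 600 were lower (3.09%). In 455 genes every LPS library lay above every saline library (2.34%), and in 668 every LPS library lay below (3.44%). The authors' deposited table, made from the same libraries, holds 134 genes higher (0.723%) and 5 lower (0.027%) of 18532 with an adjusted p.

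Single libraries carried much of the count. Without LPS replicate 3, 3 genes were called (Saa3, Lcn2 and Serpina3n), without LPS replicate 1, 5 (Saa3, Cxcl13, Fpr1, H2-Q7 and Adcy7), and without LPS replicate 2, 25. LPS replicate 3 was the highest LPS library in 10 of the 15 genes (66.7%), against 32.8% of all genes tested. It was the highest in 50.1% of the 455 genes with every LPS library above every saline library, as in all 15. Without saline replicate 1, 8 genes were called. With saline replicates 3 and 4 left out, 11 genes were called, of which 6 are among the 15 (Saa3, Serpina3n, H2-Q7, Cd52, Lat2 and Itgb2), and with saline replicates 1 and 2 left out, 6 were called, of which 2 are among the 15 (Saa3 and H2-Q7). A fit of the 7 libraries alone called 2, Saa3 and Cxcl10. Saa3 kept its call in 21 of 21 alternative settings.

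**Figure D1:**
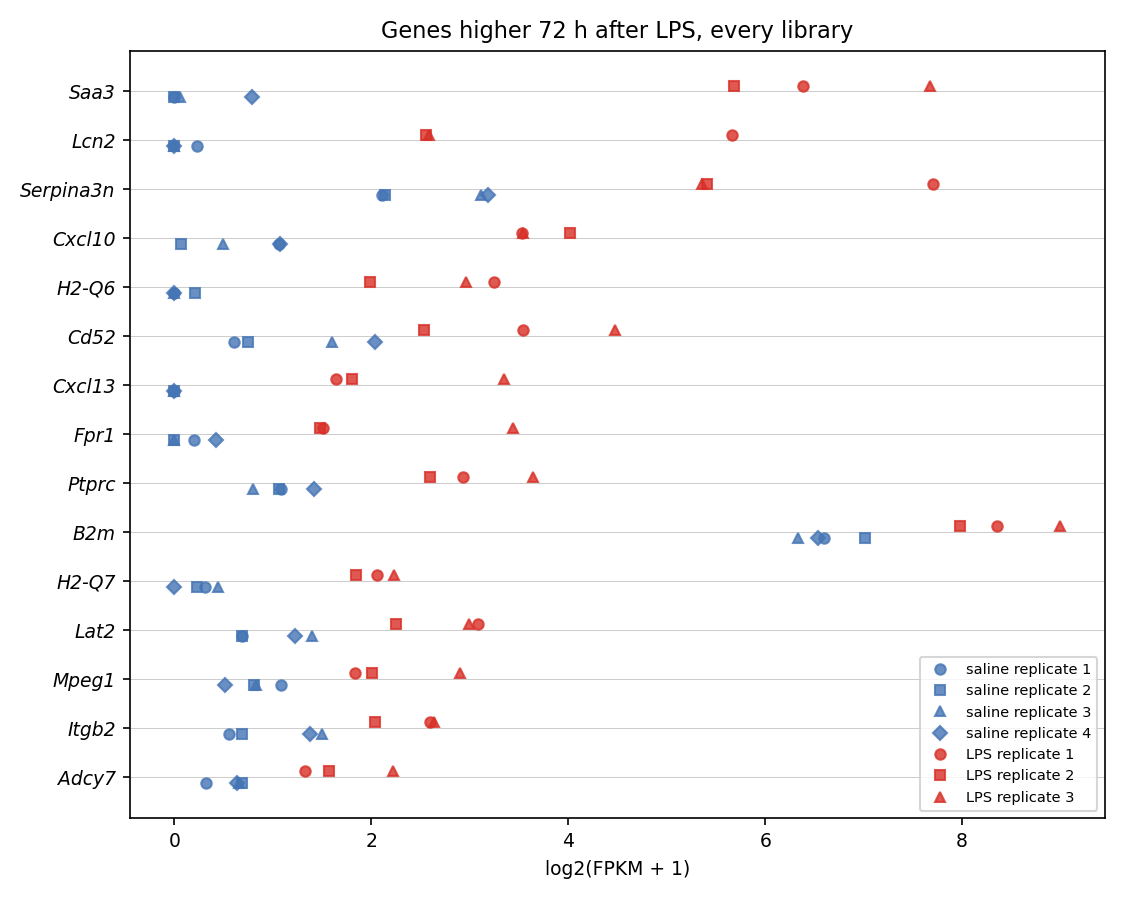
Level of each of the 15 genes called higher 72 h after LPS, in every library. The x axis is log2(FPKM + 1), red symbols are the 3 LPS libraries and blue symbols the 4 saline libraries, and symbol shapes mark replicates. Every red symbol lies to the right of every blue symbol in all 15 genes, and in Lcn2 and Serpina3n LPS replicate 1 lies apart from the other two.

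Saa3 encodes serum amyloid A3, an acute-phase apolipoprotein made outside the liver in mice (ENSMUSG00000040026.8, chr7:46711998-46715700 on GRCm38, minus strand). It was 82.3, 50.3 and 203 FPKM in LPS replicates 1 to 3, and was listed at 0 in saline replicates 1 and 2 and at 0.0424 and 0.733 FPKM in saline replicates 3 and 4. The groups did not overlap, and the lowest LPS library was far above the highest saline library. The log2 fold change on the log2(FPKM + 1) scale was 6.37 ± 0.90 (SE, adjusted p = 0.000854). Its mean was 96.6 FPKM at 24 h (LPS, SD 135, n = 4) and 24.3 FPKM at 3 h (LPS, SD 28.0, n = 5). The LPS effect at 72 h and that at 24 h differed by 0.69 ± 1.20 on the log2 scale (SE, adjusted p = 0.851), a difference too imprecise to order the times.

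Lcn2, lipocalin 2, binds bacterial iron carriers and is secreted by reactive astrocytes (ENSMUSG00000026822.14, chr2:32384633-32388252, minus strand). It was 49.5 FPKM in LPS replicate 1, 4.89 in replicate 2 and 5.00 in replicate 3, and in saline it was 0.173 in replicate 1 and listed at 0 in the other libraries. All LPS libraries lay above all saline libraries, and replicate 1 was the high one. The log2 fold change was 3.54 ± 0.65 (SE, adjusted p = 0.0102), and without LPS replicate 1 it was 2.51 and lost the call (adjusted p = 0.229). In the authors' deposited table Lcn2 has a log2 fold change of 0.49 and no adjusted p at 72 h. Lcn2 averaged 402 ± 123 FPKM at 24 h (SD, n = 4), and its LPS effect at 72 h was lower than at 24 h by 4.80 ± 0.86 on the log2 scale (a difference of -4.80, adjusted p = 0.00584).

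Serpina3n, a secreted serine protease inhibitor of the acute phase, followed the same pattern of levels (ENSMUSG00000021091.8, chr12:104406729-104414329, plus strand). It was 208, 41.6 and 40.05 FPKM in LPS replicates 1 to 3 and 3.30, 3.40, 7.66 and 8.10 FPKM in saline replicates 1 to 4. Again the groups did not overlap and LPS replicate 1 was the highest. The log2 fold change was 3.52 ± 0.55 (SE, adjusted p = 0.00327), and without LPS replicate 1 it was 2.75 (adjusted p = 0.0612). Serpina3n lies among close paralogs, and how fragments were shared between them is not given in the sources used here. Its mean at 24 h was 771 ± 221 FPKM (SD, n = 4), and the LPS effect at 72 h was below that at 24 h (difference -3.36 ± 0.74, SE, adjusted p = 0.03).

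Cxcl10 encodes a chemokine that draws CXCR3-bearing T cells and is a classical interferon target (ENSMUSG00000034855.13, chr5:92346638-92348889, minus strand). It was 10.6, 15.2 and 10.7 FPKM in LPS replicates 1 to 3 and 1.09, 0.0463, 0.407 and 1.10 FPKM in saline replicates 1 to 4. The 3 LPS libraries were close to each other and none came near saline. Its log2 fold change was 3.03 ± 0.54 (SE, adjusted p = 0.00824), and the call was lost without LPS replicate 1 (adjusted p = 0.0561) and without LPS replicate 3 (adjusted p = 0.0751), with little change of the value (3.11 and 3.10). The mean was 414 ± 231 FPKM at 3 h (SD, n = 5) and 29.3 ± 21.9 FPKM at 24 h (SD, n = 4). The LPS effect at 72 h was below that at 3 h (difference -4.44 ± 0.72, SE, adjusted p = 0.000328), while it differed from that at 24 h by -0.37 ± 0.72 (adjusted p = 0.867).

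Cxcl13, the chemokine that guides B cells into lymphoid follicles, was listed at 0 in all 4 saline libraries at 72 h and was 2.12, 2.48 and 9.20 FPKM in LPS replicates 1 to 3 (ENSMUSG00000023078.6, chr5:95956951-95961068, plus strand). It was also listed at 0 in every saline library at 3 h and 24 h, and reached at most 3.27 FPKM in LPS females at 24 h. The difference at 72 h on the log2(FPKM + 1) scale, which depends on the pseudocount here, was 2.26 ± 0.42 (SE, adjusted p = 0.0125). Without LPS replicate 3, the highest, it was 1.72 (adjusted p = 0.442).

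B2m, beta-2-microglobulin, is the light chain that every MHC class I molecule needs at the cell surface (ENSMUSG00000060802.8, chr2:122147686-122153083, plus strand). It was 327, 251 and 510 FPKM in LPS replicates 1 to 3 and 95.8, 128, 79.4 and 91.7 FPKM in saline replicates 1 to 4. No LPS library fell into the saline range, and replicate 3 was the highest. The log2 fold change of 1.83 ± 0.37 (SE, adjusted p = 0.035) was close in size to that at 24 h, 1.78 ± 0.33, and the difference was 0.05 ± 0.50 (adjusted p = 0.977). The B2m call was lost in 5 of the 7 settings that left out 1 library, with the highest adjusted p, 0.455, without LPS replicate 3.

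H2-Q6 and H2-Q7 encode non-classical MHC class I heavy chains of the Qa region and are near-identical neighbours on chromosome 17, so the split of fragments between them is uncertain. H2-Q6 was 8.47, 2.95 and 6.82 FPKM in LPS replicates 1 to 3, and was listed at 0 in 3 saline libraries and at 0.154 FPKM in replicate 2 (chr17:35424850-35430055, plus strand). H2-Q7 was 3.17, 2.58 and 3.70 FPKM in LPS and 0.236, 0.169, 0.356 and 0 FPKM in saline replicates 1 to 4 (chr17:35439155-35443773, plus strand). Both were low and neither overlapped between groups. Log2 fold changes were 2.68 ± 0.47 for H2-Q6 (SE, adjusted p = 0.00824) and 1.80 ± 0.29 for H2-Q7 (SE, adjusted p = 0.00327). H2-Q6 lost the call without LPS replicate 1 (2.42, adjusted p = 0.0895) and without LPS replicate 3 (2.56, adjusted p = 0.135), and H2-Q7 lost it without LPS replicate 3 (1.71, adjusted p = 0.0621).

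The other 7 genes are best known from leukocytes. Ptprc encodes CD45, the tyrosine phosphatase on the surface of all nucleated blood cells and, at lower levels, microglia (chr1:138062861-138175708, minus strand). It was 6.62, 5.04 and 11.5 FPKM in LPS replicates 1 to 3 and 1.12, 1.09, 0.734 and 1.67 FPKM in saline replicates 1 to 4. The log2 fold change was 1.97 ± 0.38 (SE, adjusted p = 0.0163), against -0.07 ± 0.33 at 24 h (adjusted p = 0.959) and 0.11 ± 0.33 at 3 h (adjusted p = 0.923). The difference between 72 h and 24 h, 2.04 ± 0.51, did not pass (adjusted p = 0.0687). At 24 h Ptprc averaged only 0.859 FPKM in saline and 0.907 FPKM in LPS. Microglia markers were also lower in the 24 h females, with a median sum of 97.4 FPKM in saline and 139 in LPS. At 72 h these medians were 500 and 740 FPKM, so the effects at the 2 times were read from unlike levels. The Ptprc call was lost in 5 of the 7 settings that left out 1 library, with adjusted p up to 0.442. Cd52, a short surface glycoprotein of lymphocytes and myeloid cells, was 10.7, 4.80 and 21.2 FPKM in LPS and 0.525, 0.682, 2.04 and 3.10 FPKM in saline (2.27 ± 0.40, SE, adjusted p = 0.00824). The lowest LPS library was only modestly above the highest saline library. Itgb2, the beta-2 integrin chain CD18, was 5.03, 3.11 and 5.21 FPKM in LPS and 0.467, 0.615, 1.82 and 1.60 FPKM in saline (1.39 ± 0.26, SE, adjusted p = 0.014). On leaving out 1 library the Itgb2 call was lost in 4 of 7 settings, with adjusted p up to 0.34, and the Cd52 call in 3 of 7, with adjusted p up to 0.392.

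Lat2, an adaptor of immune receptor signalling in B cells, mast cells and myeloid cells, was 7.49, 3.76 and 6.98 FPKM in LPS and 0.613, 0.612, 1.63 and 1.33 FPKM in saline (1.78 ± 0.31, SE, adjusted p = 0.00824). Fpr1, the formyl peptide receptor of phagocytes, was 1.85, 1.79 and 9.86 FPKM in LPS and 0.344 FPKM or less in saline (1.99 ± 0.36, SE, adjusted p = 0.0102). Mpeg1, a pore-forming protein of macrophages, was 2.56, 3.01 and 6.48 FPKM in LPS and 0.427 to 1.12 FPKM in saline (1.44 ± 0.30, SE, adjusted p = 0.0385). Adcy7, an adenylyl cyclase, was 1.502, 1.98 and 3.64 FPKM in LPS and 0.251 to 0.606 FPKM in saline (1.13 ± 0.22, SE, adjusted p = 0.0158). In Fpr1, Mpeg1 and Adcy7 replicate 3 stood highest, and without it their values were 1.34, 1.11 and 0.87 (adjusted p = 0.442, 0.565 and 0.455). The calls were lost on leaving out 1 library in 6 of 7 settings for Mpeg1, in 2 of 7 for Adcy7 and for Lat2, and in 1 of 7 for Fpr1. Of these 7 leukocyte genes, Cd52 was also called at 24 h, and none was called at 3 h. Some were near the floor at 24 h, where log2(FPKM + 1) shows little change. Mpeg1 averaged 0.274 FPKM in saline and 0.539 in LPS at 24 h, and Itgb2 0.146 and 0.955, while Lat2 averaged 1.54 and 3.11. The LPS effect was higher at 72 h than at 3 h for Lat2 (2.35 ± 0.41, adjusted p = 0.0011), Itgb2 (1.498 ± 0.35, adjusted p = 0.0267) and Adcy7 (1.52 ± 0.29, adjusted p = 0.00292). These differences exceed the effects at 72 h, because the values at 3 h were -0.58, -0.10 and -0.39. The genes had been selected by their rise in the same 72 h libraries.

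No member of the marker lists of other cell types was called by limma at 72 h. The leukocyte genes above are not members of those lists. Summed levels of the lists are given beside these genes. The authors' deposited table calls 4 of 20 microglia markers and 1 of 7 border macrophage markers higher. It also calls 1 of 16 endothelial markers and 1 of 5 neutrophil and monocyte markers with an adjusted p higher, and 0 of these lists' members lower. Over all genes in it, 0.723% were higher. Summed FPKM of 20 microglia markers was 299, 394, 606 and 706 in saline replicates 1 to 4 and 740, 680.0 and 1147 in LPS replicates 1 to 3. In that list 18 of 20 log2 fold changes were above 0. Further, 5 of 20 were higher in every LPS than in every saline library, and 0 were called by limma. The sums overlapped between groups. Of all 19426 genes tested, 7328 had a log2 fold change above 0 and 2.34% lay without overlap above saline. Within that list the homeostatic microglial genes P2ry12 and Tmem119 overlapped between groups, P2ry12 at 28.9 to 78.8 FPKM in LPS and 33.7 to 62.1 in saline, and Tmem119 at 15.5 to 25.5 and 10.04 to 35.3. The signalling adaptor Tyrobp did not overlap, at 55.9, 58.7 and 127 FPKM in LPS and 13.9 to 49.0 in saline. Also without overlap were Ly86, at 19.6 to 48.4 FPKM in LPS and 7.17 to 14.3 in saline, and Aif1, at 8.65 to 25.9 and 3.96 to 6.84. C1qc was 83.8 to 152 FPKM in LPS and 27.9 to 79.0 in saline. Of 16 neutrophil and monocyte markers 6 were measured, and their sum was 12.2, 14.4, 27.8 and 37.9 FPKM in saline and 96.3, 71.8 and 310.5 FPKM in LPS. Most of that sum was lysozyme, Lyz2, at 63.1, 61.7 and 288 FPKM in LPS and 8.13 to 25.5 FPKM in saline. The neutrophil alarmins S100a8 and S100a9 were listed at 0 in all saline libraries and in LPS replicate 2, S100a8 was 20.4 and 6.08 FPKM in LPS replicates 1 and 3, and the monocyte marker Ly6c2 was listed at 0 in all 7 libraries. Ly6g, Ngp, Camp, Mpo and Ccr2 are not in the table analysed here.

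Border macrophage markers summed to 7.82, 22.6, 16.2 and 27.7 FPKM in saline and 15.2, 21.4 and 74.9 FPKM in LPS, with 1 of 7 measured genes, Ms4a7, without overlap and with overlapping sums. LPS replicate 3 was the highest library of all 3 myeloid lists, and it was the highest LPS library for Saa3, Cd52, Cxcl13, Fpr1, Ptprc, B2m, Mpeg1, Itgb2, Adcy7 and H2-Q7. Only 2 of 18 lymphocyte markers were measured, at a sum of 1.43 to 2.79 FPKM in LPS and 2.29 to 3.51 FPKM in saline. Of 5 erythroid markers measured, 4 lay lower in every LPS than in every saline library, against 3.44% of all genes tested, at sums of 124, 415 and 648 FPKM in LPS and 757 to 1787 FPKM in saline, and 0 passed the test. The part of these other cells in the 15 calls was not tested, and in bulk samples more cells of a type cannot be told apart from more RNA per cell.

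**Figure D2:**
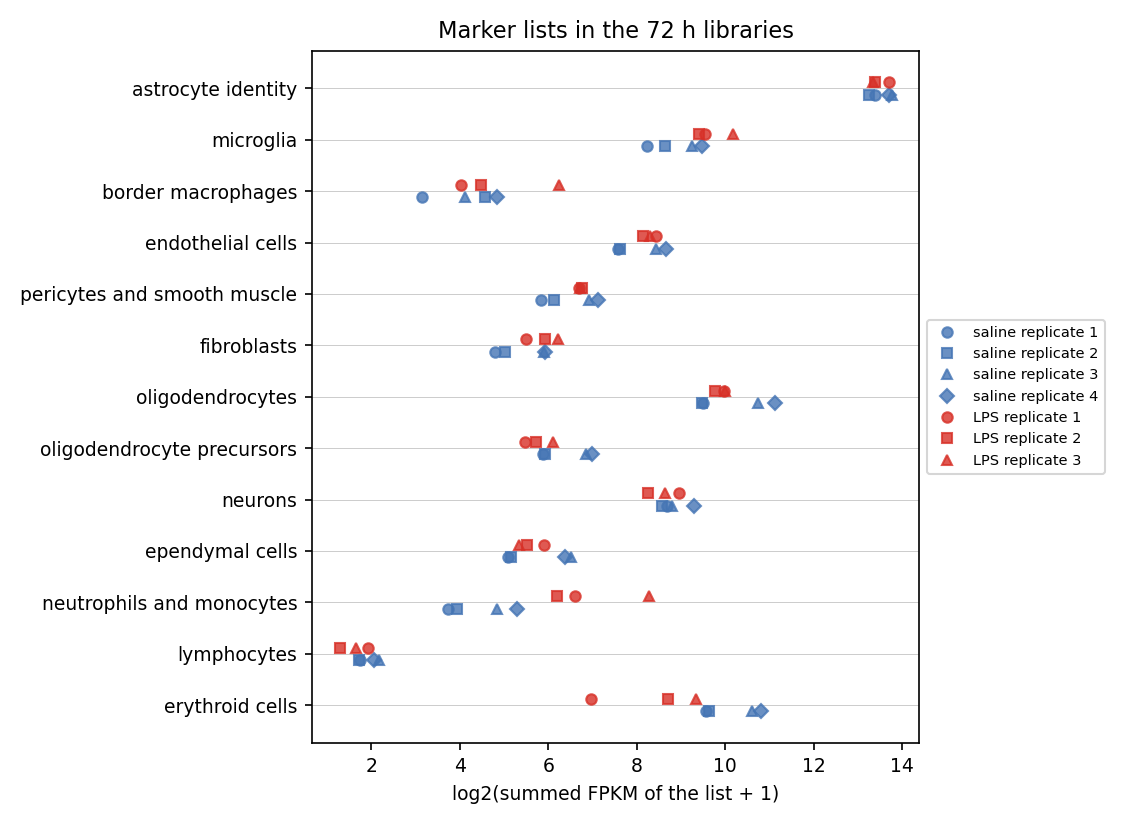
Summed FPKM of each cell type marker list in every 72 h library. The x axis is log2(summed FPKM + 1), red symbols are LPS and blue symbols saline libraries, with shapes for replicates. The neutrophil and monocyte list shows the 3 LPS libraries to the right of all saline libraries, and the erythroid list shows them to the left.

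RefSeq promoters on GRCm38.p6 were found for 12 of the 15 genes, and 250 bases before the start were searched on both strands for 3 motifs. An interferon-stimulated response element core (GAAA, any 2 bases, then GAAA) was in 3 of 12 promoters (25.0%), those of Saa3, Cxcl10 and B2m, and in 317 of 9988 promoters of genes tested (3.174%). An NF-kB motif (GGG, any 3 bases, then TTCC, or GGG, any 4 bases, then TCC, where the second includes the first) was in 5 of 12 (41.67%) and in 24.22% of all. A STAT core (TTC, any 3 bases, then GAA) was in 1 of 12 (8.333%) and in 7.139% of all. The sequences below are those of the 3 promoters with the interferon element and of the 2 other acute-phase genes, read 5′ to 3′ on the gene's strand, with matches to the interferon element and to the NF-kB motif in capitals. A match is a description of letters and not a measured binding site.
Saa3, chr7:46715677-46715926, minus strand: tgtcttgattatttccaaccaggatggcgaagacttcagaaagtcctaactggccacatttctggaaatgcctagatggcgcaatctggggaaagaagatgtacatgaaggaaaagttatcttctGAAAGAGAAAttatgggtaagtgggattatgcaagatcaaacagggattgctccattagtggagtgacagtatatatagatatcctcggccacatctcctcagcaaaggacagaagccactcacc
Cxcl10, chr5:92348890-92349139, minus strand: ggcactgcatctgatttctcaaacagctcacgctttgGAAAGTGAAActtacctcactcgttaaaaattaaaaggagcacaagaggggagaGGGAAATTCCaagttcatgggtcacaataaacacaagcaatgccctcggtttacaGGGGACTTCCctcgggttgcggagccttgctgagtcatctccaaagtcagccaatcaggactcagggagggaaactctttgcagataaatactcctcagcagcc
B2m, chr2:122147437-122147686, plus strand: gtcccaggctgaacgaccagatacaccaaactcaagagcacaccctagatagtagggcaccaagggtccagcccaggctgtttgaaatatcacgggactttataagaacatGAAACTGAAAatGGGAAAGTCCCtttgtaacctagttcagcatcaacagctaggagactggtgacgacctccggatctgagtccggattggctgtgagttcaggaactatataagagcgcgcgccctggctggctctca
Lcn2, chr2:32387740-32387989, minus strand: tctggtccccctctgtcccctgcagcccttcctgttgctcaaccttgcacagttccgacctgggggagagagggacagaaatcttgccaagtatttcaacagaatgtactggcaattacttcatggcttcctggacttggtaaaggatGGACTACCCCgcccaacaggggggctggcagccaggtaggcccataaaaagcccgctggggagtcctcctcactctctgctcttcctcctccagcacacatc
Serpina3n, chr12:104406458-104406707, plus strand: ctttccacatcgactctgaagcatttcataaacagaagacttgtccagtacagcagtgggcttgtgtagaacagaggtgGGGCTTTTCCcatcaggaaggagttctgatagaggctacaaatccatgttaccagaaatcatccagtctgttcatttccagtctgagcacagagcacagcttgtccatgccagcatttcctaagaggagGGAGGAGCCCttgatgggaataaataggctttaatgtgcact
In Saa3 the capitals are 1 interferon element, which starts 125 bases before the transcript start. Cxcl10 has the interferon element 213 bases and 2 NF-kB matches 159 and 104 bases before the start. In B2m the interferon element starts 139 bases before the start and is followed by 2 overlapping NF-kB matches 127 and 126 bases before it. Lcn2 and Serpina3n hold no interferon element in this window, and have 1 and 2 NF-kB matches.

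How much of the earlier response was still present was read from the genes called at 3 h and 24 h, which were compared with different saline libraries. LPS raised 494 genes (2.54%) and lowered 155 (0.798%) at 24 h, and raised 376 (1.94%) and lowered 86 (0.443%) at 3 h. Of the 494 genes higher at 24 h, 7 were also called higher at 72 h: B2m, Cd52, Cxcl10, H2-Q7, Lcn2, Saa3 and Serpina3n. That is 1.417% of the 24 h list, beside 0.0772% of all genes tested called higher at 72 h. It is also 46.7% of the 72 h list, beside 2.54% of all genes tested called higher at 24 h. The median log2 fold change of the 494 was 1.36 at 24 h and 0.13 at 72 h, beside -0.10 at 72 h for all genes tested. The 494 were selected by their rise in the 24 h libraries, which favours a high median at 24 h and not at 72 h. Under median-of-ratios scaling the median of all genes at 72 h was 0.01, so the centre of all genes moves with the scaling. In 75 of the 494 (15.2%) every LPS library at 72 h lay above every saline library, against 2.34% of all genes tested. The 155 genes lower at 24 h had a median of -0.05 at 72 h. None of them was called lower at 72 h, but neither was any of the 19426 genes tested. In 14 of the 155 (9.03%) every LPS library at 72 h lay below every saline library, against 3.44% of all genes tested.

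Of the 376 genes higher at 3 h, 6 were called at 72 h (Cxcl10, H2-Q6, H2-Q7, Lcn2, Saa3 and Serpina3n), and 84 (22.3%) lay above saline without overlap at 72 h. The shares over all genes tested were 0.0772% called higher and 2.34% above saline without overlap. The median of the 376 was 1.59 at 3 h, the time at which they were selected, and 0.22 at 72 h. In the 130 genes higher at both earlier times, 5 were called at 72 h and 41 (31.5%) did not overlap. Outside both earlier lists, 7 of 18686 genes (0.0375%) were called at 72 h: Adcy7, Cxcl13, Fpr1, Itgb2, Lat2, Mpeg1 and Ptprc. That share is below the 0.0772% over all genes tested. Being called at one time and not at another is not a test of the difference.

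That difference was tested directly. The LPS effect was lower at 72 h than at 24 h in 63 genes (0.324%) and higher in 4 (0.0206%), and lower at 72 h than at 3 h in 112 (0.577%) and higher in 36 (0.185%). All 63 genes with a lower effect than at 24 h had been called higher at 24 h. The difference and that call use the same 24 h libraries, so this overlap is not independent. These counts depend on the saline libraries: against 24 h, 6 were lower and 0 higher with saline replicates 3 and 4 left out, and 293 lower and 133 higher with replicates 1 and 2 left out. Of single libraries, leaving out LPS replicate 2 gave 24 genes lower, LPS replicate 3 gave 34, saline replicate 3 gave 27 and saline replicate 4 gave 25, and the count of higher genes ranged from 0 without LPS replicate 2 to 9 without LPS replicate 1. The 7 genes shared with 24 h became 2 without LPS replicate 1 and 3 without LPS replicate 3, and the 6 shared with 3 h became 2 and 3.

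**Figure D3:**
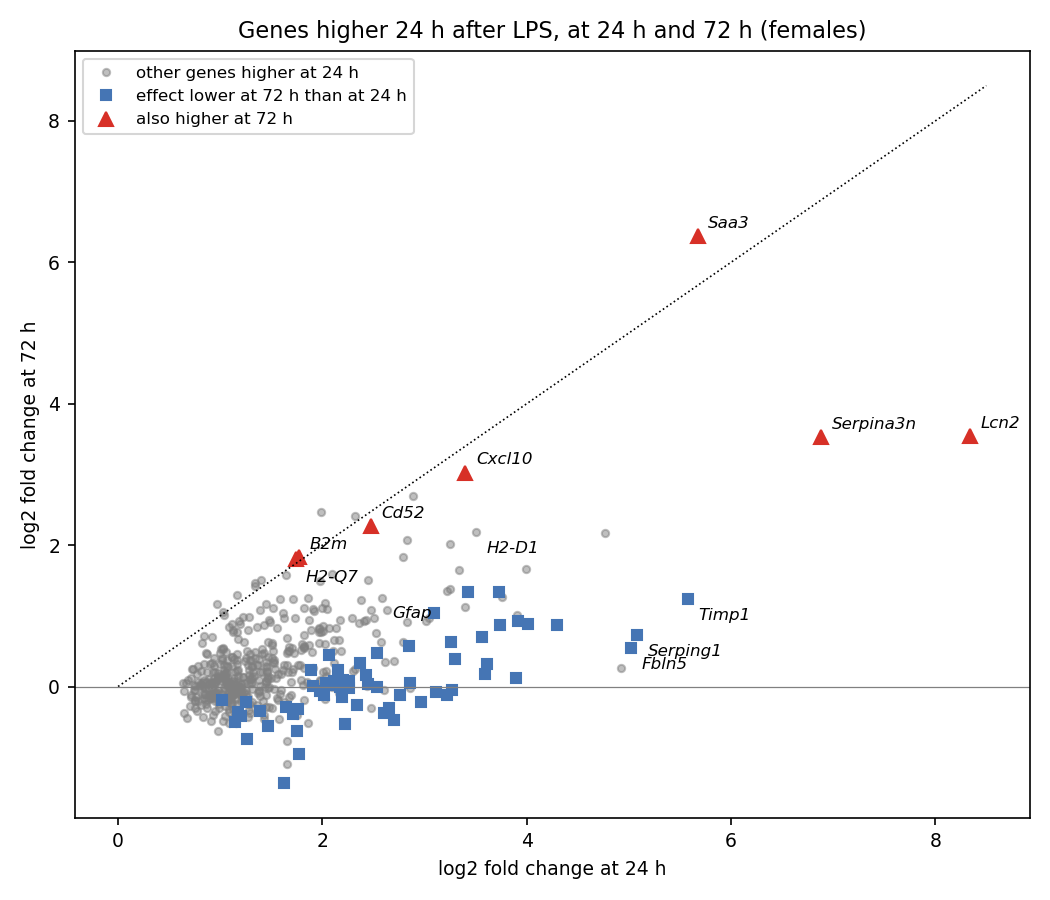
Log2 fold change of the 494 genes called higher at 24 h, at 24 h on the x axis and at 72 h on the y axis, on the log2(FPKM + 1) scale. Red triangles are the 7 genes also called higher at 72 h, blue squares are genes whose LPS effect was lower at 72 h than at 24 h, grey dots are the remaining genes, and the dotted line marks equal effects. Saa3, B2m, Cd52, Cxcl10 and H2-Q7 lie near the line, and Serping1, Timp1 and Fbln5 lie far below it.

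The 6 genes with the largest falls of the effect from 24 h, among those higher at 24 h, were Lcn2, Fbln5, Serping1, Timp1, Glycam1 and Lrg1. Fbln5, fibulin 5, an elastic fibre protein, averaged 47.2 FPKM in LPS at 24 h against 0.468 in saline. At 72 h Fbln5 was 2.82 ± 1.58 FPKM in LPS (SD, n = 3) and 1.57 ± 0.823 in saline (SD, n = 4), and its effect fell by 4.48 on the log2 scale (SE 0.63, adjusted p = 0.000374). Serping1, the C1 inhibitor of the complement cascade, averaged 106 FPKM in LPS at 24 h and 7.96 ± 4.14 FPKM at 72 h, when saline was 4.29 ± 1.73 (difference of effects -4.36 ± 0.71, SE, adjusted p = 0.00237). Timp1, an inhibitor of matrix metalloproteases, averaged 48.8 FPKM in LPS at 24 h. At 72 h it was still 1.69, 1.16 and 1.68 FPKM in LPS and was listed at 0 in 3 saline libraries and at 0.263 FPKM in replicate 4. Timp1 did not overlap between groups, yet did not pass the test at 72 h (1.24 ± 0.56, adjusted p = 0.882), and its effect was lower than at 24 h by 4.34 on the log2 scale (-4.34 ± 0.74, adjusted p = 0.00409).

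Glycam1 and Lrg1 are secreted as well. Glycam1, a mucin-like ligand of L-selectin, averaged 14.8 FPKM in LPS at 24 h and 0.128 FPKM at 72 h (difference of effects -3.77 ± 0.45, adjusted p = 2.44e-05). Lrg1, a leucine-rich acute-phase glycoprotein, averaged 22.2 FPKM at 24 h and 1.41 ± 1.58 FPKM at 72 h (SD, n = 3; difference -3.42 ± 0.70, adjusted p = 0.0171). Among complement genes, C3, the central component, averaged 3.22 FPKM at 24 h and was 0.511, 0.169 and 0.531 FPKM in LPS and at most 0.0592 FPKM in saline at 72 h. C4b was 100.3, 62.1 and 35.3 FPKM in LPS and 17.9, 20.5, 31.6 and 25.5 FPKM in saline at 72 h, without overlap but with LPS replicate 3 close to saline replicate 3 (1.34 ± 0.36, adjusted p = 0.267). The LPS effect was lower at 72 h than at 24 h for C3 (-1.62 ± 0.37, adjusted p = 0.0397) and for C4b (-2.09 ± 0.48, adjusted p = 0.038).

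Gfap was 392, 449 and 373 FPKM in LPS replicates 1 to 3 and 156, 185, 177 and 155 FPKM in saline replicates 1 to 4. The groups were tight and well apart. The log2 fold change was 1.26 ± 0.28 (SE), and the adjusted p of 0.0705 missed the threshold in the fit across all genes, while the authors' deposited table gives 1.20 with an adjusted p of 3.78e-05. Gfap averaged 549 FPKM in LPS at 3 h and 892 FPKM at 24 h, and the difference between the effects at 72 h and 24 h, -1.32 ± 0.37, did not pass (adjusted p = 0.128). Vim, vimentin, the other main intermediate filament of reactive astrocytes, was 30.03 ± 5.22 FPKM in LPS (SD, n = 3) and 20.7 ± 7.94 in saline (SD, n = 4; 0.58 ± 0.36, adjusted p = 0.958). H2-D1 and H2-K1, the classical class I heavy chains, did not overlap. H2-D1 was 206, 89.6 and 127 FPKM in LPS and 15.6, 17.1, 42.6 and 56.2 FPKM in saline (2.19 ± 0.50, adjusted p = 0.0829), the higher saline values being those of replicates 3 and 4. H2-K1 was 146, 68.2 and 95.5 FPKM in LPS and 34.1 to 59.0 FPKM in saline (1.07 ± 0.35, adjusted p = 0.533).

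**Figure D4:**
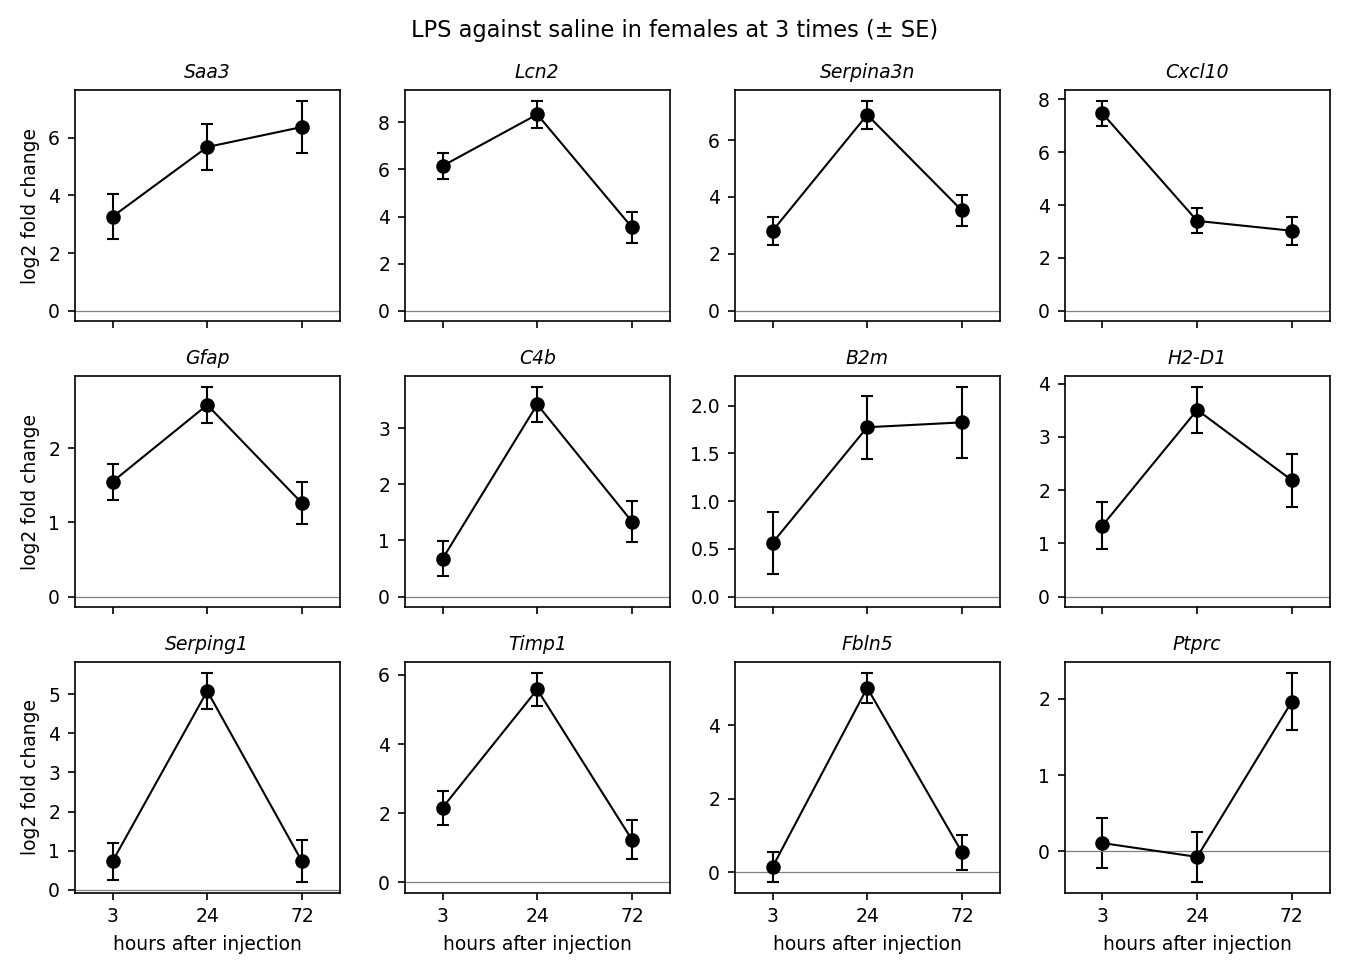
LPS against saline in females at 3, 24 and 72 h for 12 genes. Each panel plots the log2 fold change on the log2(FPKM + 1) scale with its SE against the time after injection, with the 3 times evenly spaced, a separate y axis per panel and a grey line at 0. Cxcl10 is highest at 3 h, Lcn2, Serpina3n, Gfap, C4b, H2-D1, Serping1, Timp1 and Fbln5 at 24 h, and the 72 h values of Saa3 and B2m are about as high as those at 24 h, while Ptprc lies near 0 at 3 h and 24 h.

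By gene list, the 72 h medians lay between 0 and those at 24 h in most inflammatory lists. The pan-reactive panel, a set of genes raised in astrocytes by both LPS and ischaemia in earlier work, had 3 of 13 members called (Lcn2, Cxcl10 and Serpina3n), a median of 0.99 and 7 members without overlap, beside 0.0772% called, a median of -0.10 and 2.34% without overlap for all genes tested. At 24 h 12 of the 13 had been called, with a median of 2.65, beside 2.54% of all genes. Among those not called at 72 h, Osmr, the oncostatin M receptor, was 7.07 to 9.57 FPKM in LPS and 3.01 to 5.13 FPKM in saline, and Steap4, a metalloreductase, was at or below 0.152 FPKM in LPS and at or above 0.270 FPKM in saline. The A1 panel, raised in astrocytes by LPS in that work, had 0 of 11 measured members called at 72 h against 10 of 11 at 24 h, with medians of 0.88 and 3.56. Acute-phase and STAT3 targets had 2 of 16 called (Saa3 and Lcn2) with a median of 0.81, against 10 of 16 at 24 h. The authors' deposited table calls more members higher at 72 h. Of members with an adjusted p it calls 6 of 12 pan-reactive, 5 of 11 A1 and 5 of 15 acute-phase and STAT3 genes. Over all genes in it, 0.723% were higher.

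Interferon-stimulated genes had 0 of 37 called and a median of 0.51, with 32 of 37 log2 fold changes above 0 and 11 of 37 (29.7%) without overlap. All genes tested had 7328 of 19426 above 0 and 2.34% without overlap. At 3 h and 24 h 29 and 27 of the 37 had been called. Zbp1, a sensor of Z-form nucleic acids, was at 0 in each of the 4 saline libraries, against 0.858, 0.311 and 1.92 FPKM in LPS. Xaf1, an antagonist of apoptosis inhibitors, was 2.41, 1.66 and 3.65 FPKM in LPS and 0.268 to 0.693 FPKM in saline. Interferon-induced GTPases had 0 of 16 called, 16 of 16 above 0, 7 without overlap and a median of 0.67, against 16 of 16 called at 3 h with a median of 2.97. Gbp6, a guanylate-binding protein, was 2.22, 4.13 and 4.14 FPKM in LPS and 0.240 to 0.750 FPKM in saline (1.59 ± 0.41, adjusted p = 0.226). Of members with an adjusted p, the authors' deposited table calls 9 of 37 interferon-stimulated genes and 5 of 14 of these GTPases higher at 72 h. Over all genes in it, 0.723% were higher.

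MHC class I chains and peptide loading had 3 of 23 called, 8 without overlap and a median of 0.56, against 18 of 23 called and a median of 1.56 at 24 h. Of all genes tested, 0.0772% were called and 2.34% lay without overlap at 72 h, and 2.54% were called at 24 h. Nlrc5, the transactivator of class I genes, was 1.82, 0.499 and 2.09 FPKM in LPS and 0.167 FPKM or less in saline (1.05 ± 0.29, adjusted p = 0.319). Tap1, a peptide transporter subunit, was 6.64, 3.62 and 4.54 FPKM in LPS and 1.67 to 2.22 FPKM in saline. Complement and its regulators had 0 of 20 called and a median of 0.69, with 8 without overlap. Of these C1qa and C1qc are also microglia markers, and Cd55, a brake on complement convertases, was 2.91, 5.64 and 11.7 FPKM in LPS and 0.314 to 1.34 FPKM in saline. Chemokines and cytokines had 1 of 26 called (Cxcl10) and a median of 0.32. Il1b, the inflammasome cytokine interleukin-1 beta, was 8.26, 11.1 and 9.56 FPKM in LPS and 0.273, 1.87, 0.418 and 1.55 FPKM in saline (2.47 ± 0.55, adjusted p = 0.0705), and Ccl5, a chemokine for T cells and monocytes, was 5.45, 4.78 and 12.5 FPKM in LPS and 0.874 FPKM or less in saline (2.70 ± 0.70, adjusted p = 0.232). The authors' deposited table calls 8 of 23 class I and 6 of 20 complement members higher at 72 h. It also calls 8 of 23 chemokines and cytokines with an adjusted p higher, against 0.723% of all genes in it.

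**Figure D5:**
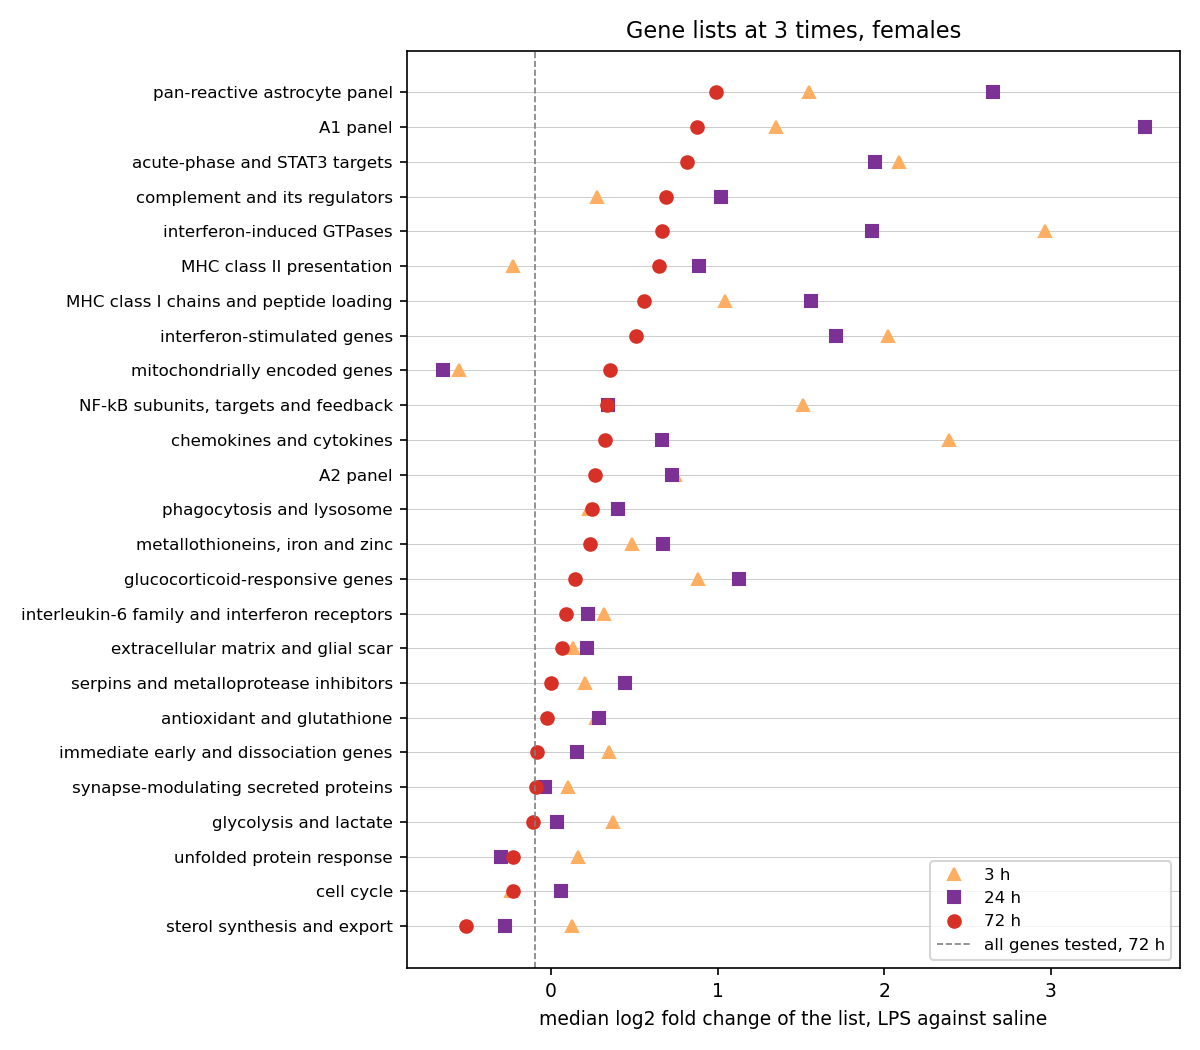
Median log2 fold change of each response gene list, LPS against saline in females, at 3 h (orange triangles), 24 h (purple squares) and 72 h (red circles). The dashed line is the median of all genes tested at 72 h, -0.10. The pan-reactive panel has the highest 72 h median, 0.99, and sterol synthesis the lowest, -0.51.

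Among the lists of responses, that of sterol synthesis and export had the lowest 72 h median, -0.51 over 24 genes, with 0 called and 8 lower in every LPS library than in every saline library, against 3.44% of all genes tested. Summed FPKM of the list overlapped, at 17088, 9157 and 8117 in LPS replicates 1 to 3 and 7258, 7631, 13895 and 12570 in saline replicates 1 to 4. The list median without saline replicates 3 and 4 was not computed. Fdps, which makes farnesyl diphosphate, was 20.98, 28.7 and 27.1 FPKM in LPS and 48.7, 35.3, 86.7 and 86.4 FPKM in saline (-1.21 ± 0.33, adjusted p = 0.3), the higher saline values being those of replicates 3 and 4. Sqle, squalene epoxidase, was 48.6, 57.9 and 69.1 FPKM in LPS and 75.8 to 86.8 FPKM in saline. Abca1, the cholesterol exporter, went the other way at 37.8, 47.5 and 36.2 FPKM in LPS and 28.03, 29.99, 16.5 and 17.3 FPKM in saline (0.83 ± 0.21, adjusted p = 0.226), the lower saline values being those of replicates 3 and 4. Abca1 was 1 of the 4 genes whose LPS effect was higher at 72 h than at 24 h (1.32 ± 0.28, adjusted p = 0.0273). The other 3, named after their values were seen, were lower after LPS at 24 h and near saline at 72 h. They were Slco1c1, a thyroid hormone transporter (-1.34 at 24 h and -0.05 at 72 h), Hapln1, a link protein of perineuronal matrix (-1.29 and 0.30), and Fgfbp3, a fibroblast growth factor binding protein (-1.59 and 0.13).

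The authors' deposited table was compared with the calls above as a second description of the same 7 libraries. Of its 134 higher genes, 14 were called here, and 118 had every LPS library above every saline library. Those shares were 0.0772% and 2.34% over all genes tested. The median deposited log2 fold change was 1.31. Of the 134, 55 had been called higher here at 24 h, 50 at 3 h, and 61 at neither time. Over all 19426 genes tested, 2.54% were called higher at 24 h, 1.94% at 3 h, and 18686 genes at neither time. LPS replicate 3 was the highest LPS library in 92 of the 134 (68.7%), replicate 1 in 31 and replicate 2 in 11. Over all genes tested replicate 3 was the highest in 32.8%, replicate 1 in 40.7% and replicate 2 in 26.5%. Over the 455 genes with every LPS library above every saline library these shares were 50.1%, 26.6% and 23.3%. Besides genes named above, the deposited table calls Cybb, the phagocyte oxidase subunit, which was 1.87, 2.71 and 11.6 FPKM in LPS and 0.137 to 0.242 FPKM in saline, with a deposited log2 fold change of 2.58 and adjusted p of 3.78e-11. It also calls Ctss, the lysosomal protease cathepsin S, at 199, 218 and 401 FPKM in LPS and 56.8 to 74.4 FPKM in saline (deposited log2 fold change 1.80, adjusted p = 4.13e-09). Adgre1, the macrophage antigen F4/80, was 14.3, 17.2 and 58.5 FPKM in LPS and 2.35 to 4.80 FPKM in saline (deposited log2 fold change 2.09, adjusted p = 9.95e-08). These 3 were chosen for display after their values were seen. Of the 5 genes lower in the deposited table, Tenm4, a teneurin adhesion protein, was 3.61, 4.24 and 4.44 FPKM in LPS and 7.70 to 12.1 FPKM in saline, with a deposited log2 fold change of -0.89 (adjusted p = 0.0165).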

How the data were processed

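Bulk RNA sequencing of sorted astrocytes was analysed in 35 libraries of 8 groups. Per the labels' protocols, RNA was isolated with an Agilent column kit, amplified with SMART-seq HT and made into Nextera XT libraries. The authors deposited FPKM per gene and library, and HISAT2, StringTie, DESeq2 and build mm10 are named in the submitters' processing notes, with no versions. The adjusted p-values that the authors deposited for 72 h derive from DESeq2, per the file headers. They stand beside log2 fold changes that the authors deposited, and whether fold changes were shrunk is not given in the sources used here. Of 19584 entries, 11 repeated an identifier, and the first was kept. Spreadsheet dates had replaced 20 symbols, which were restored from the identifier. Positions are from GENCODE M21 on GRCm38.

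Genes that reached an FPKM of 1 in 3 or more libraries were tested on log2(FPKM + 1) with limma 3.58.1 in R 4.3.3, with 1 coefficient per group over all 35 libraries (27 residual degrees of freedom), an intensity trend and Benjamini-Hochberg adjustment at 0.05. The scale understates changes of low genes. Differences between times are contrasts of the same fit. The script was tested on simulated data. FPKM gives no read depth, so no counting interval is given. The members and gene lists were chosen with earlier results of these data known. Genes named are the called genes with no overlap between groups (up to 20 higher and 8 lower), up to 3 called genes per response list and 2 per list of other cells, 15 fixed genes, the 6 with the largest fall of the effect from 24 h, and any called gene whose effect rose from 24 h, of which there were 0. Members of lists given with values were chosen after their values were seen. Alternatives tried were other pseudocounts, filters, scalings, spread estimates and sample sets, leaving out each 72 h library, and a replicate block.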

Additional observations from a re-analysis of the deposited data

Results flagged for a closer look

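In 6 genes 1 of the 4 saline libraries at 72 h lay far from the other 3, by Dixon's gap criterion. Chance meets it in about 1 in 20 groups of normally distributed values, which FPKM need not be. That rate holds for neither Lcn2, H2-Q6, Timp1 nor Glycam1, where the other 3 libraries are listed at 0 and any value above 0 meets the criterion. Nor can it be taken for Saa3, which is listed at 0 in saline replicates 1 and 2. The far values were 0.733 FPKM for Saa3 and 0.263 FPKM for Timp1, both in replicate 4, 0.173 FPKM for Lcn2 and 0.251 FPKM for Adcy7 in replicate 1, 0.154 FPKM for H2-Q6 in replicate 2, and 0.0836 FPKM for Glycam1. All were below 1 FPKM.

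The LPS effect at 72 h differed from that at 24 h, by the contrast of the 2 effects in limma, in 9 of the genes named by the rule, and was lower in each of these 9. The log2 differences were -4.80 for Lcn2, -3.36 for Serpina3n, -1.62 for C3, -2.09 for C4b, -4.36 for Serping1, -4.34 for Timp1, -4.48 for Fbln5, -3.77 for Glycam1 and -3.42 for Lrg1. Of other genes given in the text, the effect was lower for Steap4 (-2.95) and Nlrc5 (-2.05), and higher for Abca1 (1.32), Slco1c1 (1.29), Hapln1 (1.58) and Fgfbp3 (1.73). Against 3 h, the effect at 72 h was lower for Cxcl10 (-4.44) and higher for Lat2 (2.35), Itgb2 (1.498), Adcy7 (1.52) and Adgre1 (3.31). For Lat2, Itgb2, Adcy7 and Adgre1 the log2 fold change at 3 h was below 0 and not called, so these differences exceed the effects at 72 h.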

How the results depend on the processing

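Saa3 kept its call in 21 of 21 alternatives and Mpeg1 in 7, with the other 13 called genes between. The 15 genes higher at 72 h became 2 in a fit of the 72 h libraries alone, 9 with the libraries whose values are stored in double precision alone (3 LPS and 3 saline females at 24 h are in single precision, as are some males, which leaves 1 LPS female at 24 h, assumed to vary like the other groups), 6 with saline replicates 1 and 2 left out, and 3 to 25 on leaving out 1 library. Genes lower at 72 h were 0 to 1 on leaving out 1 library, 5 with saline replicates 1 and 2 left out and 1 with the mitochondrial share as a covariate. Genes higher at both 24 h and 72 h, 7 in all, were 3 with double-precision libraries alone, 11 with median-of-ratios scaling, 13 with the mitochondrial covariate, 2 with saline replicates 1 and 2 left out, and 2 to 10 on leaving out 1 library. Genes higher at both 3 h and 72 h, 6 in all, were 2 with saline replicates 1 and 2 left out and 2 to 7 on leaving out 1 library. The 63 genes with a lower effect at 72 h than at 24 h became 38 with a filter on the 72 h libraries, 0 with double-precision libraries alone, 6 without saline replicates 3 and 4, 293 without saline replicates 1 and 2, and 24 to 60 on leaving out 1 library. The 4 with a higher effect became 1 with double-precision libraries, 10 with median-of-ratios scaling, 9 with the mitochondrial covariate, 0 without saline replicates 3 and 4, 133 without saline replicates 1 and 2, and 0 to 9 on leaving out 1 library. The labels give replicate numbers across groups, and deviations of same-numbered 72 h libraries correlated at -0.404, 0.278 and -0.277. Such values run along the split of saline replicates 1 and 2 from 3 and 4. They cannot settle whether the numbers pair the libraries. LPS replicate 1 correlated with saline replicates 3 and 4 (0.427 and 0.455), and LPS replicates 2 and 3 with saline replicates 1 and 2 (0.208 to 0.307). With the replicate number as a block, in which saline replicate 4 has no partner, 11 genes were higher at both 24 h and 72 h, 6 had a lower and 2 a higher effect than at 24 h, and 19 were higher at 72 h, of which 11 are among the 15. The cause of these changes was not tested.

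Of the log2 fold changes of named genes under the alternatives, 497 kept direction and stayed called or stayed uncalled, 97 lost the call, 7 gained it and 5 changed sign. The 497 include genes called in neither setting, which had no call to lose. All 97 losses fell among the 15 called genes, each tried in 21 alternatives. The sign changed for Slc1a2 (-0.011 with the replicate block and without saline replicate 4, -0.18 without saline replicates 3 and 4, and up to 0.22 on leaving out 1 library), Glycam1 (-0.029 without LPS replicate 1 and up to 0.205 on leaving out 1 library) and Aldh1l1 (0.24 without saline replicates 3 and 4), none of which passed the test. The alternatives on saline pairs and the mitochondrial share were chosen after seeing the data.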
